A study of Homo sapiens with 2 samples.

Results

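The HOX genes encode homeodomain transcription factors that give cells of the embryo their position along the body axis. In mammals they lie in 4 clusters, HOXA, HOXB, HOXC and HOXD, in which the genes follow each other in the order in which they are switched on from head to tail. In embryonic stem cells they are known as silent genes whose CpG-rich starts are held by Polycomb proteins rather than by DNA methylation. CpG methylation and chromatin accessibility were examined here at 38 HOX genes, 10 in HOXA, 10 in HOXB, 9 in HOXC and 9 in HOXD. The members were taken by name, not by any measured value, and are compared with 15119 autosomal protein-coding genes that have a known start.

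The libraries are ATAC-Me libraries, in which a transposase cuts accessible DNA and the fragments are then read for cytosine methylation, so that a single library gives both accessibility and methylation. They come from H9, an established human embryonic stem cell line described as pluripotent, which was grown on Matrigel in mTeSR medium without treatment and lysed as a suspension of single cells. There is 1 group with 2 replicates, and no control or differentiated sample is compared, so each HOX value is set beside the same value at other genes. Nothing in the labels says that the replicates came from separate cultures, so their spread may be technical only. The autosomes held 28475863 CpG reads in replicate 1, covering 31.6% of the listed CpGs, and 51406146 in replicate 2, covering 59.0%. Of the pluripotency genes, NANOG had 0% and 2.94% methylation at its start, SOX2 0.585% and 1.80% and CRIPTO 0% and 1.37%, each with a peak, while the T-cell gene LCK had 85.9% and 86.9% and no peak. PAX6, SOX1, NEUROG2, TBXT and EOMES, genes of early neural and mesodermal cells, also had unmethylated starts with a peak, so these markers do not separate pluripotent cells from such cells. DNMT3B, another pluripotency gene, had a peak at the start used and 43.9% and 49.7% methylation.

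The clusters are spans of GRCh38 from the first to the last member. HOXA, the 99.7 kb at chr7:27100354-27200091, and HOXB, the 200.2 kb at chr17:48528526-48728750, are transcribed from the minus strand. HOXC, the 117.2 kb at chr12:53938831-54056030, and HOXD, the 103.4 kb at chr2:176087487-176190907, are transcribed from the plus strand. The spans hold 3.74, 2.42, 2.94 and 3.37 CpGs per 100 bp, in that order. HOXC4, HOXC5 and HOXC6 share 1 annotated start, so the 38 members have 36 distinct starts.

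RefSeq sequence upstream of the start is shown for 3 members at which a peak was called and for the 2 members with the lowest start methylation. The latter have no peak, so the CpG content of HOX starts with and without a called peak can be compared. This grouping goes by the peak list alone, not by read density. Each is the 250 bases before the start on GRCh38.p14, written 5′ to 3′ along the gene. In HOXD10 (chr2:176116528-176116777, plus strand), HOXA10 (chr7:27179862-27180111, minus strand) and HOXD1 (chr2:176188418-176188667, plus strand) the capitals mark the bases inside the called peak, which are 222, 158 and 187 of the 250.
HOXD10: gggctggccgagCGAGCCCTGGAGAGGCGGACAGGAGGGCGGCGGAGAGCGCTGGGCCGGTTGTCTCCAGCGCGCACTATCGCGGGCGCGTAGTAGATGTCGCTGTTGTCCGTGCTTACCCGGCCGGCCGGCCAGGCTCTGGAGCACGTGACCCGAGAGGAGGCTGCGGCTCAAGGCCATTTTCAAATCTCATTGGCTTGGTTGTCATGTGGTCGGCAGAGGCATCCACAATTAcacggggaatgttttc
HOXA10: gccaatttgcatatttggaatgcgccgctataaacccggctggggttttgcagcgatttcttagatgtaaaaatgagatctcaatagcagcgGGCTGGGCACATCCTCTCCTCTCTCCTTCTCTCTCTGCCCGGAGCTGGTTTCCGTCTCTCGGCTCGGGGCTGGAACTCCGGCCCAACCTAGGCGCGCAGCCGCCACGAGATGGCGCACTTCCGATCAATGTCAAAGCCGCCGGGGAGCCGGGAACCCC
HOXD1: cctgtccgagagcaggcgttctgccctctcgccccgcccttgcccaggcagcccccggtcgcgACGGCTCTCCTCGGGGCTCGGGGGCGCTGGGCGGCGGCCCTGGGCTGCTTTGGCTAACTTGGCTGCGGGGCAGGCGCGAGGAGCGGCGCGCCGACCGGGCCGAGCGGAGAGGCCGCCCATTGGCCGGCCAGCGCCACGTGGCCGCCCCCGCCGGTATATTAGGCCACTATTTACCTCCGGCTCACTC
In HOXD13 (chr2:176092471-176092720, plus strand) and HOXA13 (chr7:27200092-27200341, minus strand), which have no peak, the capitals mark each CpG dinucleotide.
HOXD13: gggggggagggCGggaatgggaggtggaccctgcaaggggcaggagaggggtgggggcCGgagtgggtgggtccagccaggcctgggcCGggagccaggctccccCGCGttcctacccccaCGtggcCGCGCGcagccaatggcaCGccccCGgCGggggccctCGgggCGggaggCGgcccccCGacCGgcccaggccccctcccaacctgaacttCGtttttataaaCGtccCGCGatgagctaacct
HOXA13: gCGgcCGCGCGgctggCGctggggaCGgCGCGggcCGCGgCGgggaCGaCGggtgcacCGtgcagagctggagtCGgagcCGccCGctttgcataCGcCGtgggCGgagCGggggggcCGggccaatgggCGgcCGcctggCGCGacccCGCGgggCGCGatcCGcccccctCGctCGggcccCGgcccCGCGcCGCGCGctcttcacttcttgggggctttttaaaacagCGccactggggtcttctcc
HOXD10 holds 23 CpGs in these 250 bases, HOXA10 19 and HOXD1 31, against 21 in HOXD13 and 40 in HOXA13, so the number of CpGs does not order the members with a peak above those without. Over the 300 bases from 250 before to 50 after the start, 20 members have a RefSeq entry, with a median of 22.5 CpGs (range 4 to 44), and 15101 autosomal protein-coding genes have a median of 22.0. Median GC content was 58.0% in the HOX entries and 63.0% in all. The CCAAT box, searched as CCAAT on both strands, occurred in 17 of the 20 HOX entries (85.0%) and in 36.0% of all, while the GC box GGGCGG occurred in 10 (50%) and in 58.9% of all. The TATA box TATAAA was found in HOXA3, HOXA9, HOXA10 and HOXD13 (20%, against 9.71% of all), the homeodomain core TAATTA in HOXD3 and HOXD11 (10%, against 3.40%) and the octamer ATTTGCAT in HOXA10 alone (5%, against 1.69%). HOXC4 and HOXC5 have the same entry, and these matches describe letters, not bound sites.

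HOX starts were almost free of methylation. Of the 38 members, 34 had at least 20 CpG reads within 500 bp of the start in each replicate, and 33 of these 34 lay under 20% in both replicates, against a background of 91.4% of 11454 measured gene starts and 98.6% of 5919 starts with at least 74 CpGs, the median of the measured HOX starts. The share of low HOX starts is therefore near that of other CpG-dense starts. The median HOX start had 2.42% methylation in replicate 1 and 3.64% in replicate 2, or 3.03% ± 0.859 (SD, n = 2), and the median of all starts was 0.667% and 1.65%. HOX medians were thus above those of all starts in each replicate, while starts without a peak but with at least 68 CpGs, the median of all HOX starts, had medians of 1.48% and 2.45%, and 89.6% of the 931 measured were low. Mean methylation was under 5% at 26 members, from 5% to 10% at 7 and above 10% at 1. HOXA2, HOXB2, HOXB6 and HOXB8 had too few reads to be measured.

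**Figure D1:**
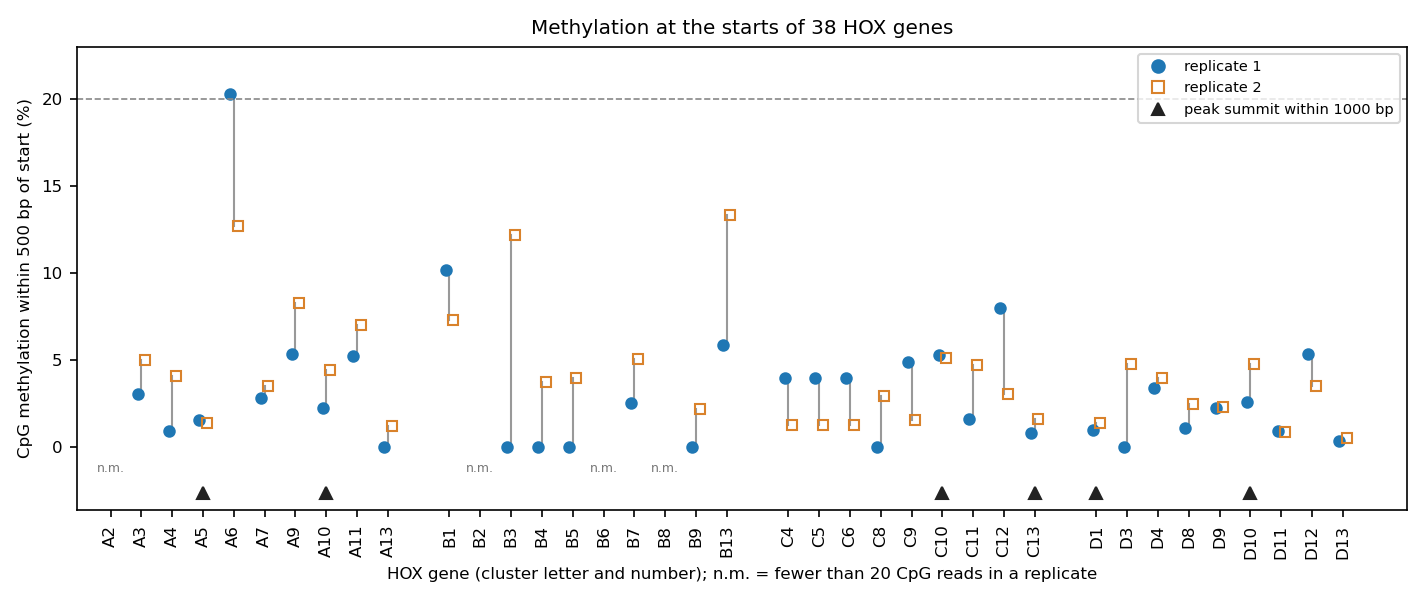
CpG methylation (%) within 500 bp of the start of each HOX gene, with filled circles for replicate 1, open squares for replicate 2, a grey line joining them, and triangles under genes with a peak summit within 1000 bp. All measured genes except HOXA6 lie under the dashed line at 20% in both replicates, and the 6 triangles fall on HOXA5, HOXA10, HOXC10, HOXC13, HOXD1 and HOXD10.

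Among the posterior genes, numbered 9 to 13, which pattern the trunk, limbs and tail end, 16 of 16 were measured and all 16 were low. HOXD13, a gene of digit formation, had 0.346% and 0.538%, the lowest mean of the family. HOXA13, its paralogue, had 0% of 217 reads in replicate 1, which allows up to 1.38%, and 1.20% of 334 reads in replicate 2. HOXD11 had 0.923% and 0.880%, HOXB9 had 0% of 95 reads, which allows up to 3.16%, and 2.21% of 271 reads, and HOXC13, known for hair and nail formation, had 0.830% and 1.6%. HOXB13, a gene of the prostate and tail end, was the highest of the posterior genes, with 5.88% and 13.3%, followed by HOXA9 with 5.36% and 8.26%. HOXB13 rested on 34 and 105 reads, and its 95% Wilson intervals, 1.63 to 19.1% and 8.11 to 21.1%, overlap.

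The central genes, numbered 4 to 8, act in the thorax and neck, and 12 of 13 measured were low. HOXA6 was the exception, with 20.3% of 69 reads in replicate 1 and 12.7% of 118 reads in replicate 2. Its interval in replicate 1, 12.5 to 31.2%, spans the limit, and that in replicate 2, 7.86 to 19.9%, ends just under it. Because such intervals cover counting error only, the side of 20% on which HOXA6 lies is not settled at this depth. HOXB1 in replicate 1 and HOXB3 and HOXB13 in replicate 2, all counted as low, also had intervals that span 20%. Within HOXA6 the methylated reads lay mostly outside the 300 bases around the start, where 5.56% of 18 and 3.70% of 27 reads were methylated. HOXA5, a gene of lung and thorax, had 1.54% and 1.40%, and HOXC8 had 0% of 30 reads, which allows up to 10%, and 2.94% of 136. HOXA6 stood apart from both neighbours, HOXA5 and HOXA7 with 2.82% and 3.55%, in each replicate.

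The anterior genes, numbered 1 to 3, pattern the hindbrain, and 5 of 7 were measured, all low. HOXD1 had 0.969% and 1.42% and HOXA3 had 3.08% and 5%. HOXB1, which marks a single segment of the hindbrain, was the highest, with 10.2% and 7.33%. HOXB3 had 0% of 21 reads and 12.2% of 41, and HOXD3 had 0% of 22 and 4.76% of 147, differences that cannot be resolved at these depths. The medians of the groups were 2.98% ± 2.85 for anterior, 3.06% ± 0.694 for central and 2.86% ± 0.603 for posterior genes (SD, n = 2), and they differed by less than the spread between replicates. Cluster medians were 3.65% ± 1.16 in HOXA, 2.54% ± 3.60 in HOXB, 2.80% ± 1.70 in HOXC and 1.78% ± 0.983 in HOXD, so that HOXB and HOXC overlap each other and both other clusters within the spread. HOXA lay above HOXD in each replicate, by 1.74 and 1.99 points, or 1.86 ± 0.180 (SD, n = 2).

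Fisher's exact test, two-sided and Benjamini-Hochberg adjusted over all 11454 starts, called 1 of 34 HOX starts, against 29.8% of all starts. That member was HOXA4, with 3 of 317 methylated reads (0.946%) in replicate 1 and 24 of 583 (4.12%) in replicate 2 (Fisher's exact test, adjusted p = 0.0289). Replicate 2 was higher at 23 of 34 HOX starts, and at 9726 of the 11454 starts. The measured HOX starts had fewer reads than others, with medians of 94 and 199.5 over the 34 members against 636 and 927.5 over all measured starts, and the part of depth in this count was not tested.

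In contrast to their methylation, few HOX starts were in a peak. A summit lay within 1000 bp of 6 of 38 starts (15.8%), against a background of 63.3% of all gene starts and 83.8% of starts with at least 68 CpGs. The 6 were HOXA5, HOXA10, HOXC10, HOXC13, HOXD1 and HOXD10, and none lay in HOXB. Each summit was upstream of its start, by 21 bp at HOXD1, 111 bp at HOXC10, 114 bp at HOXA10, 132 bp at HOXA5, 147 bp at HOXD10 and 161 bp at HOXC13. The peak signal, the authors' own value per peak, was 1066 at HOXC13, 734 at HOXD1, 450 at HOXA5, 352 at HOXC10, 332 at HOXD10 and 230 at HOXA10. Among the 9577 gene starts with a peak the median was 1313, above each of the 6, and HOXC13 exceeded 39.7% of them while HOXA10 exceeded 1.44%. Counting only peaks whose q-value is better than the list's median left 2 HOX starts with a peak, against 50.5% of all starts.

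A start that was unmethylated yet had no peak was thus the usual state of a HOX gene. It was found at 27 of 34 measured members (79.4%), against 10.7% of all measured starts. Of 40 developmental homeobox genes outside the clusters, which share the DNA-binding domain and are also lineage genes, 14 (35.0%) were in this state, 24 had a low start with a peak and 2 were not low. VAX1, DLX6 and MSX2 had the lowest start methylation of that group, at 0.321%, 0.386% and 0.444%, and LHX8, LHX3 and BARHL1 the highest, at 76.0%, 16.0% and 6.65%. Genes that act with HOX proteins or control them, among them the cofactors of the PBX and MEIS families and the Polycomb subunits, had a peak at 13 of 19 starts (68.4%, against 63.3% of all), and 18 of 18 measured starts were low, against 91.4%, so both shares lay near the background. Of the 6 PBX and MEIS genes listed, MEIS1 and PBX4 had a peak and MEIS2, MEIS3, PBX2 and PBX3 had none. EZH2 had 0.628% and 1.19% with a peak, MEIS1 had 0.351% and 0.704% with a peak, and CDX2, an activator of HOX genes in the tail end, had 0% and 2.10% without one.

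Read density, which does not use the peak list, also placed HOX starts low. HOX starts had a median of 1.29 reads per CpG in replicate 1 and 2.66 in replicate 2, against 5.84 and 8.83 at all gene starts. The median HOX start stood at percentile 26.3 of all gene starts in replicate 1 and percentile 26.4 in replicate 2. In each replicate 37 of 38 members lay below the middle of that distribution, and the exception was HOXC13 at percentiles 51.2 and 58.3. Members with a peak had medians at percentiles 41.4 and 41.3 and members without one at percentiles 25.2 and 25.5. By cluster, HOXD was highest, with medians at percentiles 33.9 and 33.0, and HOXB lowest, at percentiles 21.3 and 24.2, in both replicates. Against CpG-rich starts alone the HOX median fell to percentile 5.37. Fewer cells with an open start and less opening in each cell cannot be told apart in bulk libraries.

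**Figure D2:**
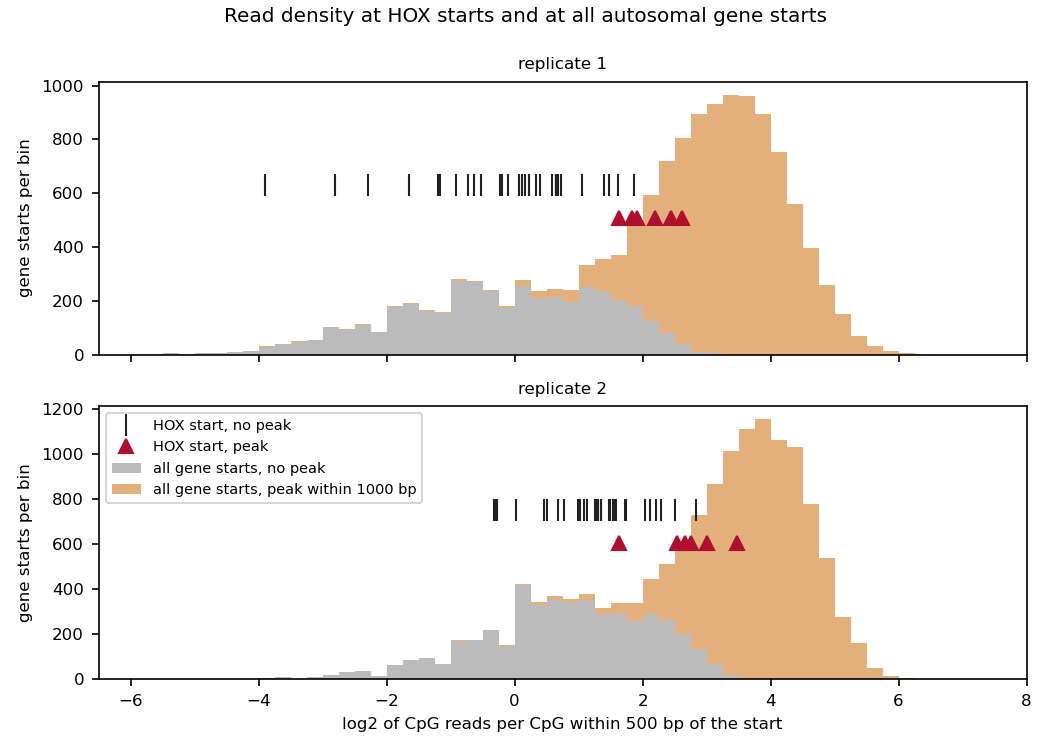
Numbers of gene starts by log2 of CpG reads per CpG within 500 bp, for each replicate, split into starts with a peak (tan) and without (grey); black bars mark HOX starts without a peak and red triangles the 6 with one, at an arbitrary height. HOX starts fill the lower part of the distribution, and the HOX medians of 1.29 and 2.66 reads per CpG lie below those of all starts, 5.84 and 8.83.

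Low methylation was not limited to the starts. Over the 4 spans together, CpGs within 500 bp of a start had 2.71% ± 0.729 methylation, the rest of the gene bodies 6.25% ± 1.15 and the DNA between genes 9.86% ± 3.05 (SD, n = 2). Starts were lower than bodies in each cluster and each replicate, and over all 4 the difference of starts minus bodies was -3.54 points ± 0.417. It was -3.10 ± 1.42 in HOXA, -2.28 ± 2.11 in HOXB, -3.84 ± 0.735 in HOXC and -3.68 ± 0.110 in HOXD. Bodies and DNA between genes differed by more than the replicate spread in HOXB and HOXC, whereas in HOXA and HOXD the replicates pointed in opposite directions. Starts were also lower than the DNA between genes, with a difference of -7.15 ± 2.32 points. At CpGs with at least 5 reads the differences shrank to -1.07 against bodies and -0.718 against the DNA between genes. With 2 replicates the smallest two-sided p of an exact sign-flip test is 0.5, so no p is given.

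**Figure D3:**
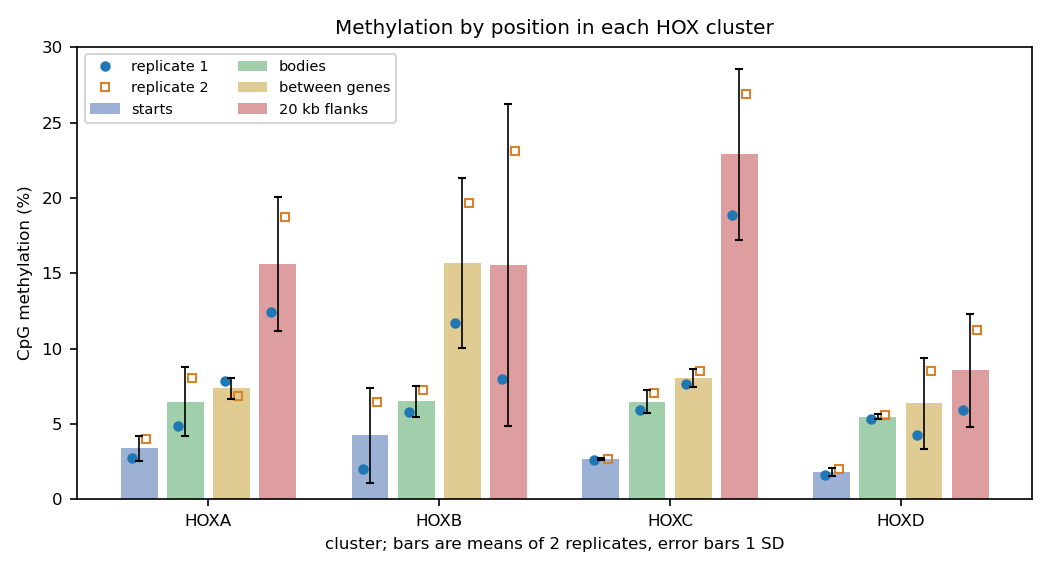
CpG methylation (%) in 4 position classes of each HOX cluster; bars are means of 2 replicates, error bars 1 SD, and points the replicates. The start bars, from 1.79% in HOXD to 4.22% in HOXB, are the shortest of each cluster, and the HOXC flank bar, at 22.9%, is the tallest.

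Gene bodies were low one by one as well. Of 36 bodies with enough reads, 34 were under 20% in both replicates, with a median of 5.71% over the measured bodies. The background was 7.1% of 13247 measured bodies of autosomal protein-coding genes. Among genes of at most 10 kb, 28 of 30 HOX bodies were low, against 23.6% of 2548. Neither these backgrounds nor those of intervals, bins and windows below were matched for CpG density. The part of CpG density in these contrasts was not tested. The exceptions were HOXB1, with 12.5% of 24 reads and 35.6% of 118, and HOXB13, with 19.4% of 67 reads and 21.6% of 162. Both crossed the limit in replicate 2 only. HOXD10, whose start has a peak, had 9.70% and 19.3% in its body, and HOXA13 had 2.14% and 13.9%. The HOXA6 body had 60.0% of 15 reads and 51.6% of 62, below the minimum in replicate 1. The 2 kb bin over the HOXA6 start, at chr7:27146001-27148000, had 28.8% and 21.6%, and it was the HOXA bin that reached 20% in both replicates. Of 32 members with both values, 23 had a body above its own start in both replicates.

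The DNA between neighbouring members was low in 21 of 23 measured intervals of 27, against 8.16% of 12762 measured intervals between autosomal protein-coding genes. Among intervals of at most 20 kb it was low in 21 of 22, against 16.7% of 5256. The lowest was HOXD13 to HOXD12, at chr2:176095945-176099794, with 0.313% of 957 reads and 1.75% of 972. HOXA2 to HOXA3 followed with 1.68% and 2.24%. The exceptions were HOXB1 to HOXB2, with 10.3% and 28.6%, and HOXB9 to HOXB13, with 11.9% and 21.2%. Both lie in HOXB, and both exceeded the limit in replicate 2 only.

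The interval from HOXB9 to HOXB13 is 98.4 kb long and holds no other HOX gene. Read from HOXB9 in steps of 10 kb, it had 10.7% ± 1.62, 4.44% ± 1.92 and 16.4% ± 9.32 in the first 30 kb. Methylation then reached 74.8% ± 6.32 in the fourth step, was 26.6% ± 19.4 and 16.4% ± 1.91 in the fifth and the sixth, and was 82.8% ± 8.67 and 80.6% ± 2.30 in the seventh and the ninth, while the eighth was too thinly covered. The last step, which ends at HOXB13, had 4.41% ± 3.09. By pooled reads this interval therefore alternates between low and high steps, and the low ones include the 3 peaks called in HOXB. With each covered CpG weighted equally, the third step had 17.9% and 42.8%, the fifth 28.5% and 58.3% and the sixth 25.3% and 38.1%. In the sixth step, the 2 kb bin with the peak had 10.4% of 135 reads and 6.61% of 363, out of 146 and 439 reads in the step. The level of these steps thus depends on the weighting. With the span ended at HOXB9, HOXB had 6.44% ± 1.73, close to HOXA with 5.75% ± 1.31 and HOXC with 6.01% ± 0.536, in place of 10.6% ± 3.06 for the whole span. HOXD had 4.44% ± 1.13. The low step next to HOXB13 holds the starts of the prostate genes PRAC2, with 0% and 1.41%, and PRAC1, with 11.1% and 11.96%.

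In bins of 2 kb, 135 of 146 measured bins of the clusters (92.5%) were under 20% in both replicates, against 17.2% of 157423 measured autosomal bins, and 0 were over 80% in both, against 33.9%. Without bins that hold a peak the shares of low bins were 91.7% (122 of 133) and 5.48%, and again 0 HOX bins were over 80%, against 46.9%. The longest run of low bins was 20 kb at chr2:176104001-176124000, which holds the starts of HOXD11, HOXD10 and HOXD9, and 10 of 19399 autosomal runs were longer. HOXA and HOXB had runs of 12 kb and HOXC one of 8 kb. Of the 11 bins that were not low, 4 were at or above 20% in both replicates: one at HOXA6, one upstream of HOXD1 with 26.5% and 20.6%, and the pair inside the HOXB9 to HOXB13 interval with 58.6% and 68.1%, and 70.0% and 59.1%. The 146 bins are those of 257 with at least 20 reads in each replicate, and the rest of the clusters is not described by these shares.

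**Figure D4:**
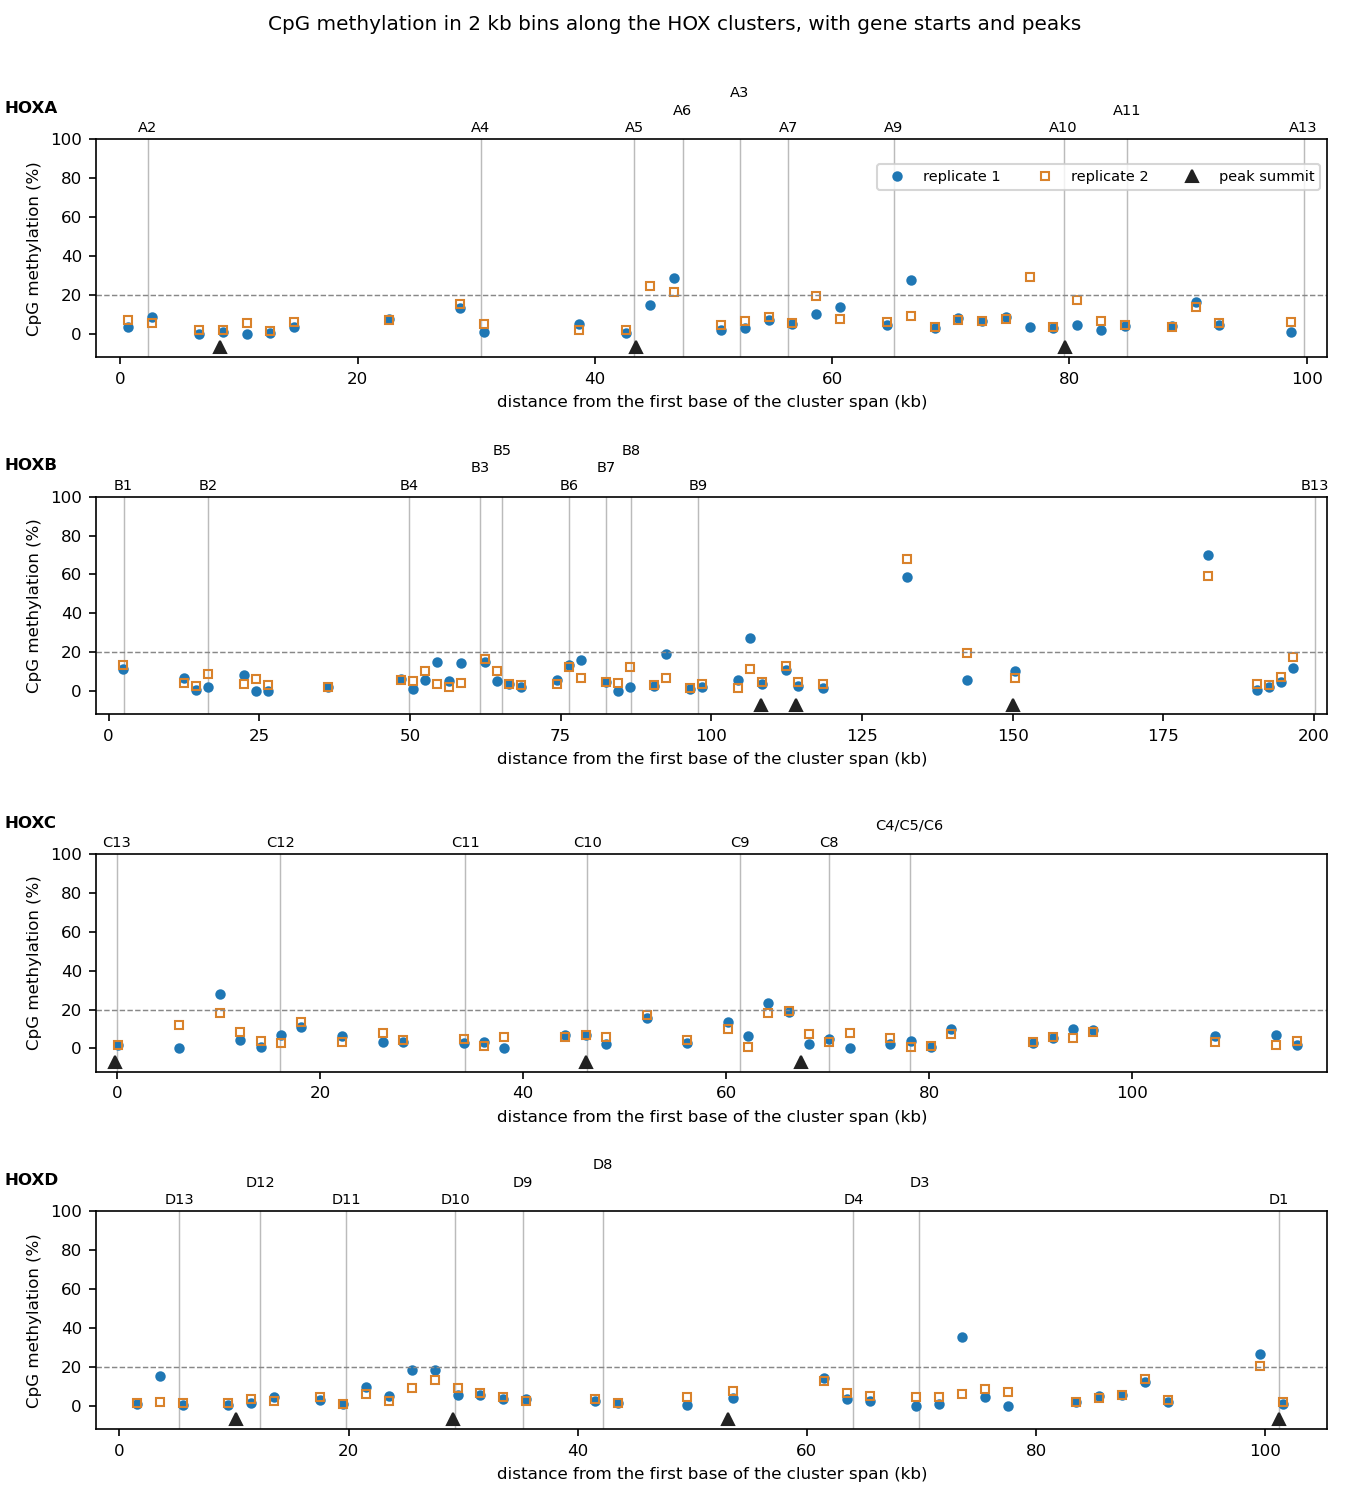
CpG methylation (%) in measured 2 kb bins along the 4 HOX spans against distance from the first base (kb), with circles for replicate 1, squares for replicate 2, grey lines at gene starts and triangles at peak summits. Most bins lie under the dashed line at 20%, and the bins near 60% to 70% in HOXB lie between HOXB9 and HOXB13.

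The same low level appears against windows of 100 kb. With peaks left out, HOXA had 6.23% ± 1.21, HOXC 6.96% ± 0.400, HOXD 5.37% ± 0.944 and HOXB 11.6% ± 2.93 (SD, n = 2). The median of 23524 autosomal windows was 79.0%, with 5% of windows under 39.7%. Windows lower than the cluster numbered 3 for HOXA, 5 for HOXC, 3 for HOXD, 28 for HOXB and 4 for HOXB1 to HOXB9. The windows over the HOX clusters themselves were not left out, and HOXA nearly fills a window, so these counts are not of other loci alone.

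Around the clusters methylation differed between sides and steps. Flanks are set by distance alone and hold genes as well, in HOXA and also in HOXD, where EVX2 lies beyond HOXD13. Over all 4 clusters the spans had 6.59% ± 1.69 and their 20 kb flanks 13.4% ± 5.85, a difference of -6.81 ± 4.16 points that was -5.45 ± 4.86 without HOXA and -11.6 with 50 kb flanks. With 10 kb flanks it was -0.449 ± 1.78 and at CpGs with at least 5 reads -0.617 ± 1.65, and in both the replicates had opposite signs. They also had opposite signs in HOXB, at 0.462 and -10.3 points (-4.93 ± 7.63).

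Beyond HOXD1, the 20 kb flank had 69.3% ± 20.6 methylation, and beyond HOXD13 it had 4.52% ± 0.274 (difference 64.8 points ± 20.3). Beyond HOXC4 it had 47.3% ± 3.86 and beyond HOXC13 12.3% ± 4.88 (difference 35.0 ± 8.74). The HOXD1 and HOXC4 flanks rest on 42 and 44 reads in replicate 1. The flanks of HOXA and HOXB differed by 3.61 ± 2.67 and 7.75 ± 7.94 points between sides when 20 kb are pooled, which hides the steps. From 10 to 20 kb beyond HOXA2 methylation was 69.8% ± 1.78, against 15.1% ± 2.94 beyond HOXA13. Beyond HOXB1 the first 10 kb had 10.9% ± 8.30 and the next 10 kb 76.5% ± 5.34, the latter on 22 reads in replicate 1, against 11.05% ± 4.46 and 10.8% ± 7.30 beyond HOXB13.

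Beyond HOXA13 the 10 kb steps had 8.83%, 15.1%, 23.4%, 6.33% and 2.36%. The third of them, at 20.6% and 26.2%, exceeded 20% in both replicates, and the other 4 lay under it in both. EVX1, a homeobox gene on that side, had 0% and 2.46% at its start without a peak. Beyond HOXB13 the third step had 9.38% and the fourth 79.3%. Beyond HOXD13 the steps were 3.13%, 8.96%, 25% and 76.4%. EVX2, next to HOXD13, had 17.4% of 23 reads and 3.8% of 79.

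In all, 16 peaks had their summit in the clusters and their 20 kb flanks, 12 of them in the spans. There they covered 0.733% of the bases, at 23.1 peaks per Mb. Neither value was computed for all autosomes, so the spans cannot be called poor or rich in peaks. Of the 16, 12 had a signal below the autosomal median of 541, and the median HOX peak had 346. All 16 had little or no methylation, from 0% to 3.67% in the mean of both replicates. The 0% is that of the peak at chr7:27091960-27092215, with 3 CpGs and 19 reads in each replicate, below the minimum of 20. Among peaks with enough reads the lowest mean was 0.266%, in HOXC. The methylation of all other peaks in the list was not computed. HOXD had the strongest, at chr2:176097204-176097910 between HOXD13 and HOXD12, 707 bp wide with a signal of 1775 and a summit 2102 bp upstream of the HOXD12 start. It held 42 CpGs with 0.396% and 1.57% methylation. Another HOXD peak lay 10887 bp downstream of the HOXD8 start at chr2:176140502-176140768, and another lay in the flank beyond HOXD13 at chr2:176079991-176080185. In HOXC, besides HOXC13 and HOXC10, a peak at chr12:54006022-54006251 lay 2795 bp upstream of HOXC8 with 0% and 0.532%. In HOXA, a peak inside HOXA3 at chr7:27108639-27108844 had 0% and 1.77%. The HOXB peaks were at chr17:48636558-48636876, chr17:48642420-48642712 and chr17:48678506-48678764, with 0.763% and 2.58%, 0.565% and 1.39%, and 2.27% and 5.06% methylation. The nearest was 10348 bp upstream of HOXB9, so no HOXB start had a summit within 1000 bp.

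The ends of each gene were compared by dividing the CpG number at the start by that at the other end. No minimum number of CpGs was set, so ends with few CpGs are included, such as those of HOXB3, with 24 and 13. For 9 members this ratio was below 2: HOXA3, HOXA6, HOXB2, HOXB3, HOXB6, HOXB8, HOXB13, HOXC5 and HOXC6. Of the 7 other ends that could be measured, 6 were under 20% in both replicates. No such share was computed for the ends of other genes. Of the measured 2 kb bins of the clusters 92.5% were low, so this count is not read as a trait of gene ends. The exception was HOXA6, with 17.5% and 21.3% at its other end. The other end of HOXA3 had 0% and 1.57%, beside 3.08% and 5% at its start. The annotation gives HOXA3 7 starts, of which the 5 with enough reads had means from 1.26% to 5.35%, and none was within 1000 bp of a peak. HOXA10 has 2, with 2.28% of 219 reads and 4.47% of 179 at the one with the peak. The other, whose nearest summit is 5655 bp away, had 10.8% of 37 reads and 5.14% of 214. The start with the peak was the lower in each replicate, but with 37 reads at the other in replicate 1 the difference was not resolved.

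The clusters also encode microRNAs, short RNAs that target HOX messages among others, and long noncoding RNAs. Mature forms are given with the seed, bases 2 to 8, in capitals, to show that the HOXA, HOXB and HOXC copies of miR-196 share one seed. The miR-10a-5p of HOXB has another. The miR-196a-5p of HOXB and HOXC is the same molecule from 2 loci.
hsa-miR-196a-5p: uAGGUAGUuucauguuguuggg
hsa-miR-196b-5p: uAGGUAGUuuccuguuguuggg
hsa-miR-10a-5p: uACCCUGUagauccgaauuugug
hsa-miR-615-3p: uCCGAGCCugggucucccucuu
Within 500 bp of the hairpin, MIR196B between HOXA9 and HOXA10 had 2.45% of 163 reads and 3.25% of 277, and MIR615 in HOXC had 10.8% of 65 and 6.06% of 99. Both were low, with no summit within 10 kb. MIR10A, MIR10B, MIR196A1 and MIR196A2 had too few reads. Of 8 HOX-linked noncoding RNAs with a measured start, 7 were under 20% in both replicates, against 91.4% of protein-coding starts. HAGLR, in HOXD, was the one with a peak, at 1.24% and 1.5%, but its window overlaps that of HOXD1 and the peak is the HOXD1 peak. HOXB-AS3 had 0% of 43 and 0% of 73 reads, and HOXA-AS3, which runs opposite to the HOXA5 to HOXA7 genes, was the exception with 34.0% of 50 and 20.5% of 73 reads. Its window overlaps that of HOXA6, so the high values of both share CpGs. Among the low ones, the windows of HOXA11-AS, HOTTIP and HOXB-AS1 overlap those of HOXA11, HOXA13 and HOXB2. The values of these RNAs thus also share CpGs with HOX starts.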

How the data were processed

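The authors deposited, per replicate (2), a fraction of methylated reads and a count of reads at each CpG. They also deposited 1 peak list, whose columns hold a score, a peak signal, a summit and a q-value as −log10. Per the submitters' processing notes, Trim Galore, Genrich and the build hg38 (GRCh38) were used. Not given in the sources used here are the aligner, the methylation caller, tool versions, duplicate removal and how replicates were joined to call peaks. Whole counts were recovered as the deposited fraction times the deposited read count.

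Methylation of a region is methylated over all CpG reads in percent, per replicate, then the mean with the SD over 2 replicates. A read covering several CpGs counts at each, and molecular identifiers were not used, so Wilson 95% intervals, the upper limit for 0 methylated reads (3 counts) and Fisher p-values cover counting error only and are too narrow or too small. Incomplete conversion of cytosine would raise low values most. Values needed at least 20 reads in each replicate. Gene bodies and DNA between genes leave out the CpGs within 500 bp of HOX starts in the clusters. In their background they leave out those within 500 bp of every protein-coding start used. The starts of the protein-coding genes PRAC1 and PRAC2 thus remain in the HOXB9 to HOXB13 interval. Unlike the background intervals, that interval does not lie between neighbouring protein-coding genes. Starts came from the RefSeq promoter table for 20 members; for the other 18 they are the 5′ end of the RefSeq gene (GRCh38.p14), with HOXA and HOXB taken as minus and HOXC and HOXD as plus strand from textbook knowledge. Comparisons between genes are descriptions beside the background. The replicates were compared per start with Fisher's exact test, run also on simulated data (Python 3.11.15, SciPy 1.17.1, statsmodels 0.14.6). The simulation drew reads independently, so it cannot check the effect of reads that count at several CpGs. Any member could be named, as could peaks in the clusters and listed RNAs, neighbours and cofactors, and the 3 lowest and 3 highest of the other homeobox genes. Members, lists and motifs were chosen with earlier results of these data known. One further gene of the family is not reported here. RefSeq gave no promoter entry for the 18 members and no mature miR-10b-5p.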

Additional observations from a re-analysis of the deposited data

How the results depend on the processing

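No pooled mean changed sign under the alternatives run, while sizes moved. The median start methylation of 3.03% was 1.95% in a 250 bp window and 4.03% in a 1000 bp window, and between 2.42% and 3.98% without a replicate, and 33 low starts became 18 of 19 with starts in the promoter table only. Starts with a peak fell from 6 to 2 with peaks above the median significance and to 3 of 20 with starts in the promoter table only, and peaks in the clusters from 16 to 4 above that significance. Spans minus flanks, -6.81 points, was -0.617 (SD 1.65) with CpGs of at least 5 reads and -0.449 (SD 1.78) with 10 kb flanks, where the replicates had opposite signs, -11.6 with 50 kb flanks, -5.45 without HOXA, and between -9.76 and -3.87 without a replicate, so the contrast depends on the reach of the flanks and on the reads required per CpG. Starts minus bodies, -3.54, was -4.29 with each CpG weighted equally, -3.04 outside peaks and -1.07 with CpGs of at least 5 reads, and starts minus DNA between genes, -7.15, was -12.5, -0.718 (SD 0.813) with at least 5 reads and -4.77 with HOXB ended at HOXB9, and without a replicate they lay between -3.83 and -3.24 and between -8.79 and -5.51. The share of low bins, 92.5%, was 71.9% at a limit of 10%, 97.9% at 30% and 84.6% with at least 10 reads, and between 79.7% and 93.2% without a replicate. The longest run of 20 kb was 5 kb in 1 kb bins, 110 kb in 5 kb bins and 12 kb at 10%, and between 20 and 26 kb without a replicate. The replicate test called 2 starts in a 1000 bp window. The median percentile of reads per CpG, 26.4, was 26.2 in a 1000 bp window and 5.37 against CpG-rich starts, and between 26.3 and 26.4 without a replicate. The causes were not tested.

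Of 96 start values of single members in other windows or with CpGs weighted equally, 35 moved by more than the spread between replicates. HOXA6 without replicate 2 was the one value at or above 20%. Alternatives on promoter table starts, on shared starts, on HOXB9 and on HOXA were chosen after seeing the data. No paired analysis was possible because there is 1 group. Depth limits the starts of HOXA2, HOXB2, HOXB6 and HOXB8, with 3 to 17 reads in replicate 1, and parts of the clusters with no reads.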
